A study of Gossypium hirsutum with 42 samples.

Results

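The genes of starch synthesis and starch breakdown were followed in the roots and leaves of upland cotton (Gossypium hirsutum) inbreds and their F1 hybrids. They were taken from the deposited expression table by the wording of its gene descriptions: amylases, starch synthases, branching enzymes, isoamylases, glucan phosphorylases, disproportionating enzymes, ADP-glucose pyrophosphorylases and glucan, water dikinases. Such a description was carried by 117 of the 100881 genes, and the 94 that reached an FPKM of 1 (fragments mapped, scaled for transcript length and library size) in 3 or more libraries were kept. The 23 genes left out came close to that minimum only in a few cases: the third highest value was 0.914 for Gh_A02G0454 (beta-amylase 3) and 0.885 for Gh_Sca160173G01 (beta-amylase 5), against 1.38 for Gh_D02G1142 (alpha-amylase-like 3) and 1.43 for Gh_D04G1159 (starch synthase 4) just inside it.

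Line A (SJ48) was the common maternal parent, and B (Z98-15), C (851-2) and D (DT-8) were the paternal inbreds. Their F1 hybrids with A were H (SJ48 × Z98-15), M (SJ48 × 851-2) and L (SJ48 × DT-8), which the study chose for high, medium and low yield heterosis. The labels name no treatment. Seedlings grew in Hoagland nutrient solution, and the root and leaf of the same plant were taken when the true leaves had fully expanded, with 3 biological replicates, so each tissue held 9 hybrid and 12 inbred libraries. The question was which genes of each tissue differ between the hybrids and their parents.

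Leaf starch is built in the chloroplast by day and broken down at night. ADP-glucose pyrophosphorylase makes the glucose donor, starch synthases lengthen the chains, branching enzymes add branches and isoamylases trim them. In Arabidopsis, breakdown opens with dikinases that phosphorylate the granule surface, goes on with beta-amylases that release maltose, and ends in the cytosol, where disproportionating enzyme 2 and a glucan phosphorylase process the exported maltose. Transcripts of many of these enzymes follow the time of day in Arabidopsis leaves, and the hour of harvest is not given for these plants.

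The 94 genes comprised 10 for ADP-glucose pyrophosphorylase, 17 starch synthases, 20 branching enzymes, 4 debranching enzymes (isoamylases), 4 dikinases of glucan phosphorylation, 21 beta-amylases, 10 alpha-amylases, 4 glucan phosphorylases and 4 disproportionating enzymes. Cotton is an allotetraploid with an A and a D subgenome, which the gene identifiers name together with the chromosome: 34 of the genes lay in the A subgenome, 55 in the D subgenome and 5 on scaffolds without a chromosome. The letters A and D in an identifier are subgenomes and have nothing to do with lines A and D. Copies of the 2 subgenomes are near-identical, so reads may have been divided between them incorrectly, and the level of a single copy is less certain than that of the pair. The wording of a description is not proof of function: 4 genes described as ADP-glucose pyrophosphorylase family proteins carry the orthology entry of GDP-mannose pyrophosphorylase, and Gh_D06G1229, described as starch synthase 4, carries that of an exonuclease. For 8 genes the entry holds more than 1 gene name, and 2 share their name with another locus.

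Differences are given on the scale log2(FPKM + 1), on which the change of a weakly expressed gene is understated. A gene was called higher or lower at a Benjamini-Hochberg adjusted p under 0.05 from limma, a linear model with moderated variances fitted to all genes of a tissue, and a log2 difference beyond 1. The table holds no counts and no coordinates, and its library sums, 391455.3 to 462951.6 FPKM, do not give the depth. By the study's sequencing summary the hybrid libraries, those of D in root and those of C and D in leaf had a lower base quality than the other inbred libraries, so L against D in root, and M against C and L against D in leaf, are the hybrid-parent comparisons between libraries of like quality. Summed over 99 genes with photosynthesis words in their descriptions, leaf libraries held 22015 to 34684 FPKM and root libraries 210 to 589, and 56 genes with root words summed to 143 to 259 in root and 45.1 to 61.9 in leaf, so the tissues matched their labels. In whole organs, fewer cells of a type and less RNA per cell cannot be told apart.

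The starch genes divided by organ. The large subunit of ADP-glucose pyrophosphorylase was abundant in leaf and stood near 1 FPKM in root, while a pair of starch synthase 3 copies was higher in root. Over all 7 genotypes, 33 of the 94 genes were higher in leaf and 5 were higher in root, or 40.4%, against 23.9% of the 69603 genes tested, of which 10% were higher in leaf and 13.9% in root. The median leaf minus root difference was 0.51 for the starch genes and -0.24 for all genes, or -0.08 for all genes after quantile normalization. Higher in leaf were 7 of 10 ADP-glucose pyrophosphorylase genes with 0 higher in root, all 4 disproportionating enzymes, 3 of 4 dikinases, 2 of 4 isoamylases and 2 of 4 glucan phosphorylases. Starch synthases split into 6 higher in leaf and 2 higher in root, alpha-amylases into 3 and 2, and beta-amylases into 4 and 1, while 2 of 20 branching enzymes were higher in leaf and 0 in root. These values average hybrids and inbreds, and the organ difference was also taken within each group, a choice made after seeing the data. In the 4 inbreds 27 genes were higher in leaf and 5 in root, and in the 3 hybrids 35 and 5. Of all 69603 genes, 6881 were higher in leaf and 9697 in root in the inbreds, and 7280 and 10226 in the hybrids. The calls of the disproportionating enzymes were 1 of 4 in the inbreds and 4 of 4 in the hybrids, those of the phosphorylases 1 of 4 and 3 of 4, and those of the dikinases 2 of 4 and 3 of 4. The phosphorylase Gh_A13G1960 differed between leaf and root by 0.20 in the inbreds (not called) and 2.62 in the hybrids, and Gh_D06G1180 by 0.50 and 1.78.

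The large subunit 1 of ADP-glucose pyrophosphorylase, the regulatory part of the enzyme, showed the widest gap. Gh_D09G2066 ranged from 66.1 to 105 FPKM in the 21 leaf libraries (median 83.6) and from 0.65 to 1.85 in the 21 root libraries (median 1.17), which is 5.30 apart on the log2 scale (limma, adjusted p = 2.24e-38). Its A subgenome copy Gh_A09G2263 had 55.2 to 74.7 in leaf (median 64.3) and 0.789 to 1.95 in root (median 1.31), a log2 difference of 4.86. No leaf library came near a root library in either copy. A gene described as ADP glucose pyrophosphorylase 1, Gh_A11G1361, was expressed in both organs, with 44.7 to 67.9 in leaf (median 52.4) and 9.34 to 20.4 in root (median 11.8). Gh_A07G1991, a family member with the GDP-mannose entry, was not called, with 9.12 to 12.5 in root and 4.19 to 7.09 in leaf.

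Among starch synthases, which add glucose to growing chains, copies of the same description differed in organ. Starch synthase 3 copy Gh_D05G1629 had 40.0 to 59.8 FPKM in leaf (median 47.9) and 6.78 to 9.60 in root, whereas Gh_D10G0126 had 3.26 to 9.70 in leaf and 9.38 to 22.4 in root (log2 difference -1.24) and Gh_A10G0120 had 0.814 to 2.28 in leaf and 4.51 to 11.5 in root (-1.71). The branching enzyme 2.2 copies Gh_A01G1778 and Gh_D01G2020 were higher in leaf, by 3.57 and 2.30 on the log2 scale, with 27.2 to 54.4 and 27.3 to 41.2 in leaf against 1.68 to 3.10 and 5.14 to 7.86 in root. Branching enzyme 2.1 copy Gh_A02G1739 stood at 20.3 to 36.4 in leaf and 11.6 to 23.2 in root, ranges that overlap. Isoamylase 1, which removes misplaced branches, was read at 5.31 to 8.45 in leaf and 1.49 to 3.11 in root for the D subgenome entry Gh_D04G0065;Gh_D04G0064.

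Alpha-amylases, which cut inside the chains, held the third largest organ difference. Alpha-amylase-like 2 copy Gh_D05G2423 had 17.2 to 55.8 FPKM in leaf (median 25.3) and 0.357 to 1.32 in root (median 0.826), a log2 difference of 3.88. Gh_D05G1937, described only as alpha-amylase-like, was higher in root, with 5.39 to 14.9 against 2.56 to 4.26 in leaf (log2 difference -1.13), and alpha-amylase-like 2 copy Gh_A06G0010 was similar in both, with 7.18 to 16.8 in root and 5.90 to 13.4 in leaf. Beta-amylase 2 copy Gh_D12G1996 had 5.60 to 8.49 in leaf and 4.03 to 6.15 in root. After quantile normalization, which raises the all-gene median of this comparison by 0.15, 2 of the 5 root-leaning calls were left, and -0.93 for Gh_D05G1937 no longer passed. Without replicate 2 of the M root, Gh_D11G0279 (-1.12, another of the 5) stood at -0.97 and was not called.

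**Figure D1:**
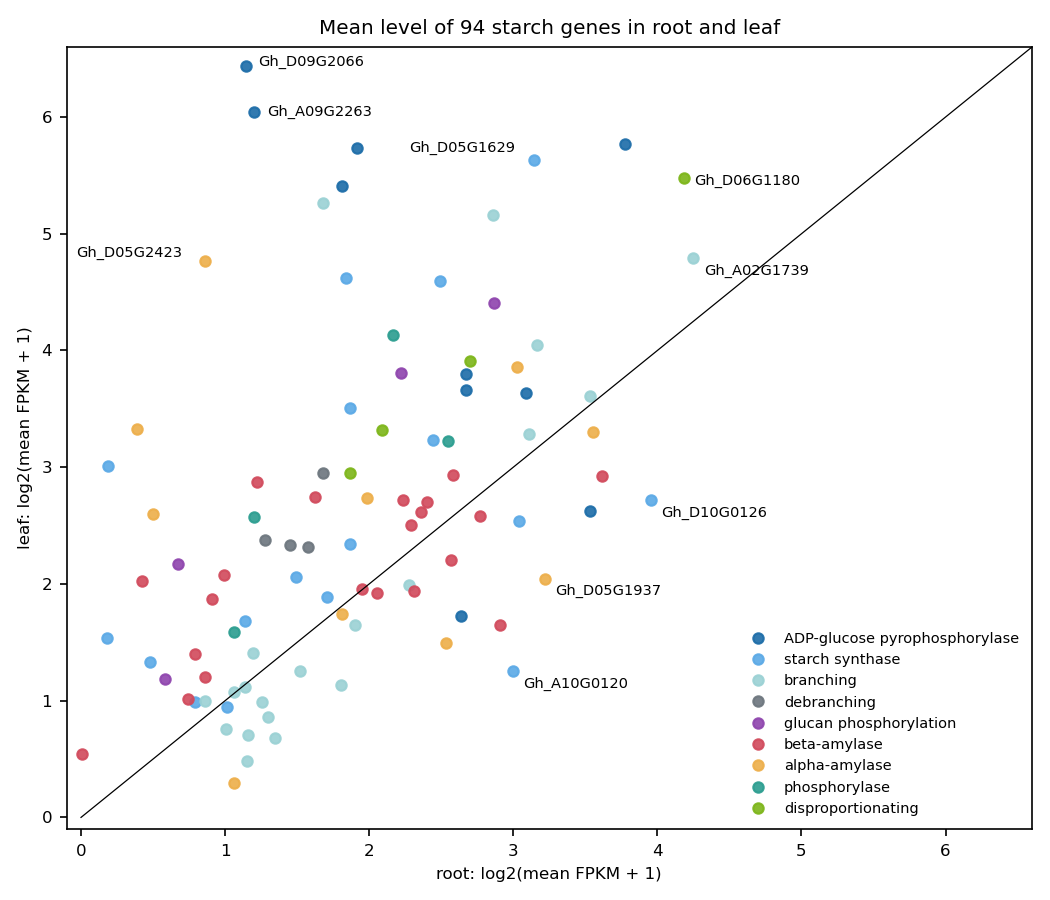
Mean level of the 94 starch genes in root (horizontal axis) and leaf (vertical axis), both as log2(mean FPKM + 1) over the 7 genotypes, coloured by enzyme class, with the line of equal level. The copies Gh_D09G2066 and Gh_A09G2263 lie at the upper left, near 1 in root and 6 or above in leaf, and the starch synthase 3 copies Gh_D10G0126 and Gh_A10G0120 lie below the line.

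In leaf, genes described as enzymes of starch breakdown made up all but 1 of the calls between hybrids and inbreds among the 94 genes. This split goes by the wording of the descriptions alone. Pairs of subgenome copies of alpha-glucan phosphorylase 2, of phosphoglucan, water dikinase and of disproportionating enzyme 2 rose, and so did a copy of alpha-amylase-like 3. A copy of beta-amylase 3, a pair of chloroplast beta-amylase copies and a copy of starch synthase 2 fell. Other genes of several of these descriptions were not called. In the contrast of the 3 hybrids with the 4 inbreds 11 of the 91 starch genes tested were called, 12.1%, against 2.56% of all 54835 genes tested in leaf. The calls were 7 higher and 4 lower, where 1.63% of all genes were higher and 0.934% lower. The median difference was 0.14 over the starch genes and 0.07 over all genes. None of the 11 had a hybrid library within the range of the inbred libraries. In leaf 15 starch genes (16.5%) had each hybrid library above each inbred library and 5 (5.49%) each below, against 3.74% and 2.13% of all genes.

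By class, 2 of 4 glucan phosphorylases, 2 of 4 dikinases, 2 of 4 disproportionating enzymes and 1 of 9 alpha-amylases were higher, and 3 of 21 beta-amylases and 1 of 17 starch synthases were lower. No call was made among 10 ADP-glucose pyrophosphorylase genes (median difference 0.19), 18 branching enzymes (0.02) or 4 isoamylases (0.37). The class medians were 1.39 for the phosphorylases, 0.97 for the disproportionating enzymes and 0.76 for the dikinases, and -0.04 for the beta-amylases. The p-values of this contrast measure the spread of replicates within genotypes. With the 7 genotype means as units, an exact 2-sided permutation test gave 0.0286 for 10 of the 11 genes, the smallest p that 3 hybrids against 4 inbreds allow, and 0.0571 for Gh_D06G1180. The 11 genes were picked by their difference in these same libraries, so a p near this minimum was nearly fixed in advance. The hybrids also share parent A and descend from the inbreds, so the genotypes are not independent units. The permutation test thus adds nothing to the calls.

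**Figure D2:**
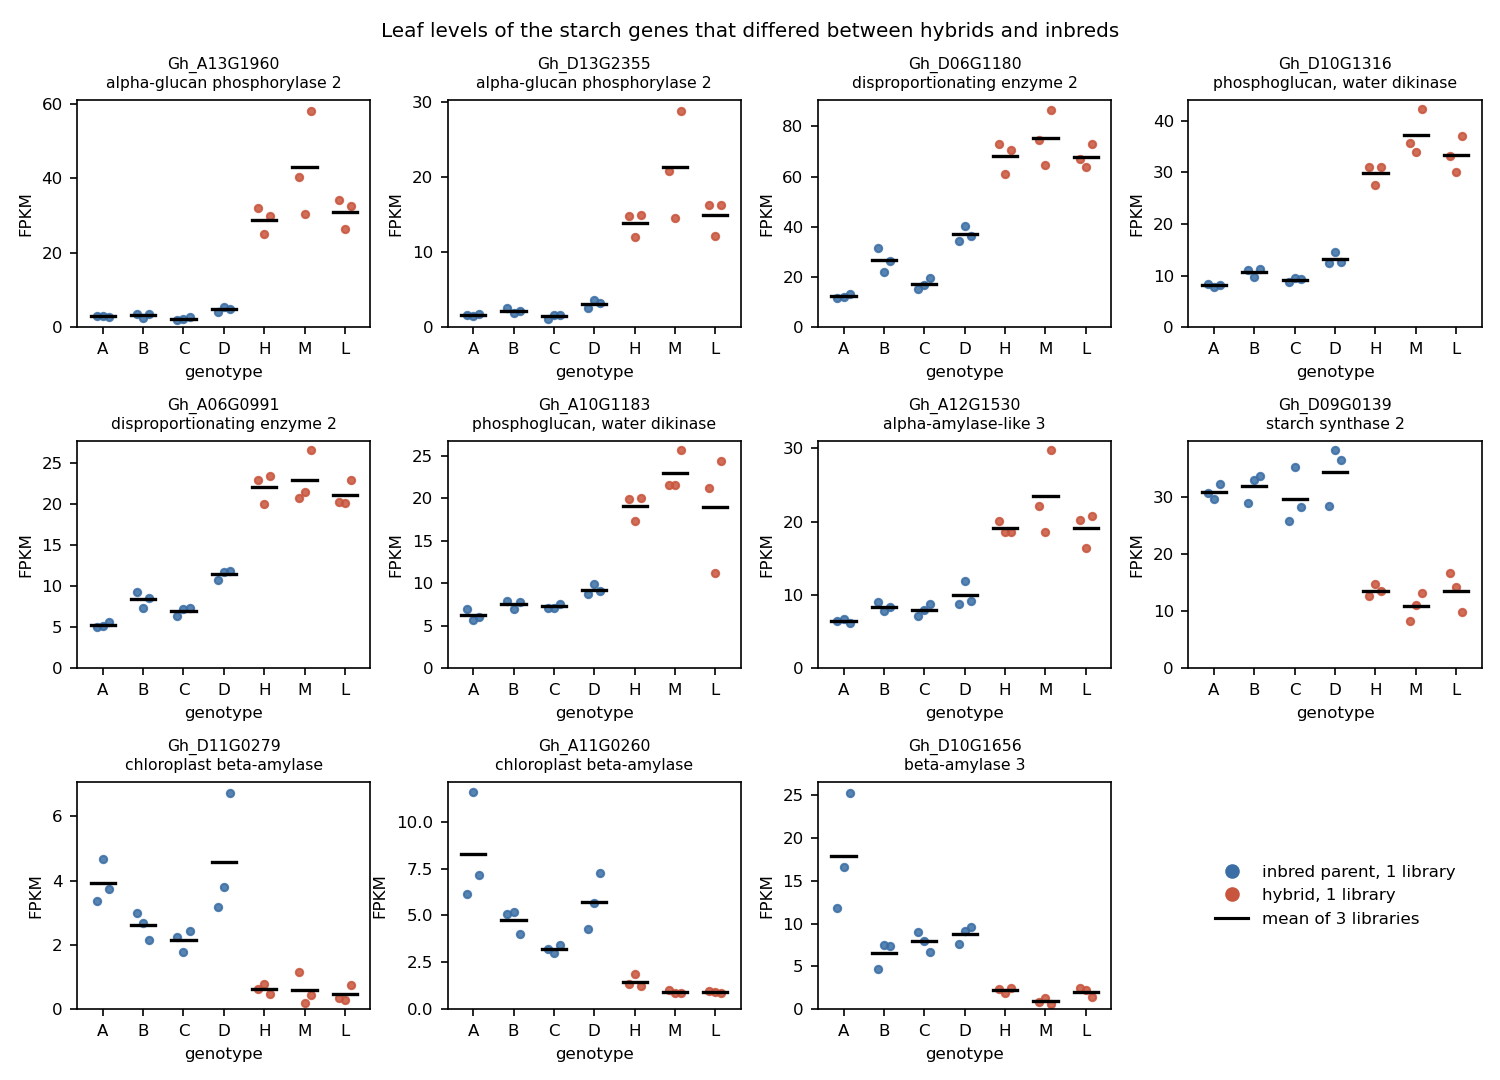
Leaf FPKM of the 11 starch genes that were called between hybrids and inbreds, 1 panel a gene, with the 3 libraries of each genotype as points and their mean as a bar, inbreds (A, B, C, D) in blue and hybrids (H, M, L) in red. In each panel the hybrid points lie apart from the inbred points, above them in 7 genes and below them in 4.

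Alpha-glucan phosphorylase 2, which in Arabidopsis is the cytosolic phosphorylase, rose most. Gh_A13G1960 had leaf FPKM of 2.99, 2.97 and 2.79 in A, 3.46, 2.44 and 3.44 in B, 1.81, 2.05 and 2.70 in C, and 4.04, 5.47 and 4.87 in D. The hybrid values were 31.9, 25.1 and 29.7 in H, 40.3, 30.3 and 58.1 in M, and 34.0, 26.2 and 32.5 in L. The lowest hybrid library thus stood several times above the highest inbred one, and the log2 difference was 3.05 (SE 0.10, adjusted p = 2.72e-13 from limma), 8.28-fold on this scale.

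The D subgenome copy, Gh_D13G2355;Gh_D13G2356, had 1.58, 1.42 and 1.70 in A, 2.58, 1.82 and 2.11 in B, 1.14, 1.62 and 1.57 in C, and 2.58, 3.57 and 3.24 in D. It reached 14.8, 12.1 and 14.9 in H, 20.9, 14.5 and 28.8 in M, and 16.3, 12.1 and 16.3 in L (log2 difference 2.52, adjusted p = 3.54e-12). In both copies replicate 3 of M was the highest library and D the highest inbred. Another pair of the same description, Gh_A05G1344 and Gh_D05G1513, was not called, at 0.19 and 0.26. The summed level of the 4 phosphorylase genes was 45.0 to 94.7 FPKM in hybrid leaves (median 54.7) and 9.26 to 15.4 in inbred leaves (median 11.2).

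Phosphoglucan, water dikinase adds phosphate to starch already primed by another dikinase. Gh_D10G1316 had 8.33, 7.69 and 8.19 in the leaf of A, 11.1, 9.69 and 11.2 in B, 8.74, 9.44 and 9.39 in C, and 12.3, 14.6 and 12.5 in D. In the hybrids it had 31.0, 27.5 and 31.1 in H, 35.6, 33.9 and 42.2 in M, and 33.1, 30.0 and 37.0 in L (log2 difference 1.62, adjusted p = 2.04e-13). The hybrid and inbred libraries did not overlap.

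The A subgenome copy Gh_A10G1183 ranged over 5.70 to 9.89 in the 12 inbred leaf libraries and over 11.2 to 25.7 in the 9 hybrid ones (log2 difference 1.30, adjusted p = 1.47e-08). Replicate 2 of L, at 11.2, stood apart from the other L libraries at 21.3 and 24.4. Gh_D05G2096 and Gh_Sca004768G01, also described as phosphoglucan, water dikinase and named after their values were seen, differed by 0.20 and 0.21 and were not called. The 4 dikinase genes summed to 46.0 to 76.0 FPKM in hybrid leaves and 17.5 to 28.0 in inbred leaves.

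Disproportionating enzyme 2 transfers glucose from maltose in the cytosol of Arabidopsis cells. Gh_D06G1180 differed already among the inbreds, with 11.5, 12.1 and 13.3 in A, 31.6, 22.0 and 26.5 in B, 15.3, 17.0 and 19.6 in C, and 34.1, 40.3 and 36.5 in D. The hybrid leaves held 73.1, 61.0 and 70.6 in H, 74.4, 64.5 and 86.7 in M, and 67.0, 63.7 and 72.9 in L (log2 difference 1.67, adjusted p = 7.04e-12). The ranges of the 3 hybrids overlapped each other, and line A was lowest. Gh_A06G0991 followed at a lower level, with 5.01 to 11.9 in the inbred leaves and 19.98 to 26.6 in the hybrid leaves (log2 difference 1.40, adjusted p = 2.59e-12). The summed level of the 4 disproportionating enzyme genes was 97.7 to 136 FPKM in hybrid leaves and 29.1 to 64.9 in inbred leaves.

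Alpha-amylase-like 3, the chloroplast alpha-amylase in Arabidopsis, was the other riser. Gh_A12G1530 had 6.39, 6.65 and 6.15 in the leaf of A, 8.97, 7.85 and 8.34 in B, 7.12, 7.89 and 8.75 in C, and 8.76, 11.96 and 9.22 in D. It stood at 20.03, 18.5 and 18.6 in H, 22.2, 18.6 and 29.8 in M, and 20.2, 16.4 and 20.7 in L (log2 difference 1.24, SE 0.07, adjusted p = 8.85e-10). The groups did not overlap, and replicate 2 of D, at 11.96, was the inbred library nearest to the hybrids. Its D subgenome partner Gh_D12G1653, which was picked after its values were seen, differed by 0.82 and was not called. Another pair of the same description, Gh_A11G0658 and Gh_D11G0771, picked likewise, was not called, at -0.02 and -0.09.

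Beta-amylase 3 fell. The name is used for more than 1 gene in Arabidopsis, so no role is given to Gh_D10G1656 beyond that of a beta-amylase. In leaf it had 11.8, 16.7 and 25.3 in A, 4.69, 7.51 and 7.42 in B, 9.07, 7.94 and 6.73 in C, and 7.64, 9.12 and 9.65 in D. The hybrids had 2.33, 1.87 and 2.44 in H, 0.825, 1.26 and 0.612 in M, and 2.43, 2.20 and 1.40 in L. M was lowest and A highest, and the log2 difference was -1.99 (SE 0.12, adjusted p = 9.04e-10), 3.96-fold on this scale.

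The subgenome copies of beta-amylase 3 stood at different distances from the inbreds. The A subgenome partner Gh_A10G2279, named after its values were seen, had 1.30 to 2.78 in hybrid and 2.35 to 4.81 in inbred leaves, which overlap, a log2 difference of -0.47 (adjusted p = 0.000303) that was not called. The D subgenome copy made up 23% to 54.1% of the pair in hybrid leaves (median 46.3%) and 65.3% to 87.3% in inbred leaves (median 72%).

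The beta-amylases described as chloroplast beta-amylase, which release maltose from starch in Arabidopsis leaves, fell in both subgenome copies. Gh_A11G0260 ranged from 0.836 to 1.85 in hybrid leaves (median 0.963) and from 3.02 to 11.6 in inbred leaves (median 5.14), a log2 difference of -1.57 (adjusted p = 1.07e-09). Gh_D11G0279 ranged from 0.181 to 1.16 (median 0.484) and from 1.79 to 6.74 (median 3.08), a log2 difference of -1.43 (adjusted p = 6.06e-08). Another gene of the same description behaved differently: Gh_D12G2112, chosen after its values were seen, had 1.45 to 4.61 in hybrid leaves and 0.314 to 2.07 in inbred leaves and was not called (0.83, adjusted p = 0.000704). Its A subgenome partner Gh_A12G1931, chosen likewise, differed by only 0.17 (limma, adjusted p = 0.409). Summed over the 21 beta-amylase genes, the leaf level was 54.9 to 79.5 FPKM in hybrids and 74.2 to 115 in inbreds, so the 2 groups overlapped.

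Starch synthase 2, which lengthens the chains of amylopectin, was the synthesis gene that fell. Gh_D09G0139 had 30.8, 29.7 and 32.3 in the leaf of A, 29.0, 33.1 and 33.7 in B, 25.8, 35.3 and 28.3 in C, and 28.6, 38.4 and 36.5 in D. It had 12.7, 14.7 and 13.5 in H, 8.29, 11.0 and 13.2 in M, and 16.7, 14.3 and 9.85 in L (log2 difference -1.28, adjusted p = 1.07e-08). The 4 inbreds shared one range and the 3 hybrids another, lower one. The A subgenome partner Gh_A09G0145 differed by -0.84 (adjusted p = 6.13e-08) and was not called. The other pair of this description, Gh_A07G1878 and Gh_D07G2092, had differences of the opposite sign, 0.59 and 0.60, under the limit. Starch synthases summed to 119 to 158 FPKM in hybrid leaves (median 138) and 143 to 183 in inbred leaves (median 159).

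The other synthesis genes among the 94 differed by less than the limit. ADP-glucose pyrophosphorylase genes summed to 322 to 381 FPKM in hybrid leaves and 301 to 361 in inbred leaves. In that class the copies Gh_A07G1759 and Gh_D07G1964, picked after their values were seen, had each hybrid leaf library above each inbred one, at 45.3 to 57.2 against 29.0 to 40.6 and 57.9 to 76.9 against 35.5 to 47.8, but log2 differences of 0.53 and 0.60 were not called. Branching enzymes summed to 146 to 182 in hybrid and 132 to 152 in inbred leaves.

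The 11 called genes lay in 7 of the 21 pairs of A and D subgenome copies that share a description and a chromosome number. In 4 pairs both copies were called in the same direction, and in 3 pairs the partner was the uncalled gene given above (Gh_D12G1653, Gh_A10G2279 and Gh_A09G0145), with a difference of the same sign at an adjusted p under 0.05. The same count over all pairs of subgenome copies was not made, and reads may be divided incorrectly between copies. The like direction of partners is therefore not shown to be a trait of starch genes. The D subgenome share of the disproportionating enzyme 2 pair was 75% to 78.2% in hybrid and 69.6% to 77.5% in inbred leaves, and was 31.6% to 34.1% against 32.3% to 44.1% in the phosphorylase pair.

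In root, the beta-amylase 3 copy Gh_D10G1656 alone was called between hybrids and inbreds, and it was lower in the hybrids. Its A subgenome partner Gh_A10G2279, named after its values were seen, differed by -0.32 in root (limma, adjusted p = 0.0186) and was not called. With a pseudocount of 0.1 in place of 1, which widens differences of low values, 1 gene was higher and 4 were lower. The all-gene share at that pseudocount is not given here. With the pseudocount of 1, Gh_D10G1656 was 1 of 85 genes tested, 1.18%, against 2.12% of all 59282 genes tested in root (0.847% lower and 1.28% higher). The median difference was 0.03 over the starch genes and 0.05 over all genes. Gh_D10G1656 had root FPKM of 10.3, 37.0 and 34.6 in A, 14.6, 15.7 and 19.0 in B, 11.7, 10.5 and 9.55 in C, and 8.68, 8.56 and 9.40 in D. It had 5.35, 4.44 and 6.63 in H, 2.90, 9.35 and 4.67 in M, and 4.83, 3.90 and 4.62 in L. Replicate 2 of M, at 9.35, lay within the inbred range, and the log2 difference was -1.32 (SE 0.20, adjusted p = 5.76e-05 from limma).

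Against line D alone, the inbred whose root libraries had the lower base quality of the hybrids, the difference of Gh_D10G1656 in root was -0.72 (adjusted p = 0.0687) and was not called. With genotype means as units its exact 2-sided permutation p was 0.0571, with the limits given for leaf: a gene picked by its call, and related genotypes. A further 7 genes (8.24%, against 1.85% of all genes) had each hybrid root library above each inbred one without reaching the limit, among them Gh_A12G1530, at 7.72 to 8.72 against 5.15 to 7.24 (log2 difference 0.30, adjusted p = 0.00063). Both root-leaning starch synthase 3 copies belonged to these, with differences of 0.73 for Gh_A10G0120 and 0.65 for Gh_D10G0126. The numbers of genes with each hybrid root library below each inbred one were 0 among the starch genes and 1.5% among all genes.

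Whether the hybrid difference itself depended on the organ was tested as the leaf difference minus the root difference in 1 fit of both tissues. This value was positive and beyond the limit for 5 of 94 genes and negative and beyond it for 2, or 7.45%, against 2.52% of all genes (1.25% and 1.27%). The sign is that of leaf minus root and does not give which organ had the difference of larger size. The phosphorylase copies Gh_A13G1960 and Gh_D13G2355, with leaf differences of 3.05 and 2.52, had root differences of 0.62 and 0.55, and Gh_D06G1180 and Gh_D10G1316 had 0.39 and 0.44 in root. The values of the test for these 4 genes were 2.43, 1.97, 1.28 and 1.18. Gh_D09G0139 was lower in hybrid leaves and stood at 0.03 in root, a test value of -1.31 (adjusted p = 2.41e-07).

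In a pair of beta-amylases the hybrid difference had opposite signs in the organs. Gh_D02G1897, a beta-amylase 6, had 1.09 to 1.96 in hybrid and 0.251 to 1.20 in inbred roots (0.75), but 0.75 to 3.37 in hybrid and 2.08 to 6.70 in inbred leaves (-0.90), a test value of -1.65 (adjusted p = 1.11e-10). Gh_D12G2112 was lower in hybrid roots (0.151 to 0.859 against 0.288 to 1.71, a difference of -0.57), opposite to its leaf values above, with a test value of 1.40 (adjusted p = 7.7e-06). Neither gene passed the limit within an organ. The A subgenome partner of Gh_D12G2112, Gh_A12G1931, differed by 0.17 in leaf and -0.56 in root, and its test value of 0.73 was not called.

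**Figure D3:**
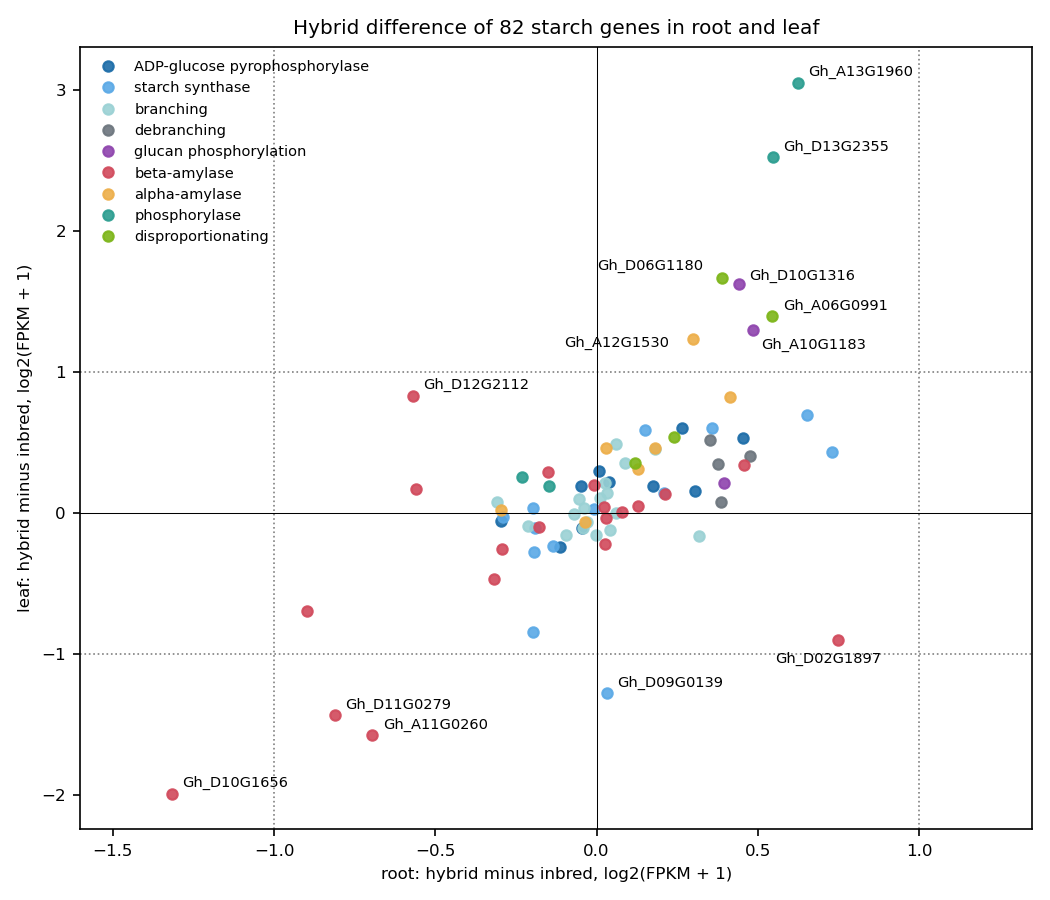
Hybrid minus inbred difference of the 82 starch genes tested in both tissues, root on the horizontal and leaf on the vertical axis, both on the scale log2(FPKM + 1), coloured by enzyme class, with dotted lines at the limit of 1. The phosphorylase copies lie at leaf differences of 3.05 and 2.52 with root differences near 0.6, and Gh_D10G1656 alone lies beyond the limit in both.

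Each hybrid was next set against its own parents. The comparisons of a hybrid share its libraries, and the 3 comparisons with the maternal parent share those of A, so they are not independent of each other. In leaf, 8 starch genes were higher and 6 lower in H than in A (3.26% and 1.87% of all genes), and 7 and 4 in H than in B (2.43% and 1.07%). For M the numbers were 8 and 8 against A (3.66% and 2.66%) and 7 and 5 against C (2.3% and 2.18%). For L they were 8 and 7 against A (3.13% and 1.76%) and 5 and 5 against D (1.94% and 1.02%). Both M against C and L against D compare libraries of like base quality.

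Beyond both of its parents, a level often called overdominant, stood 7 starch genes above and 4 below in the leaf of H (1.5% and 0.801% of all genes). In M 7 stood above and 5 below (1.61% and 1.21%), and in L 4 and 4 (0.961% and 0.657%). Gh_A13G1960 exceeded the maternal and the paternal parent by 2.93 and 2.86 in H, 3.44 and 3.74 in M, and 3.02 and 2.46 in L. Gh_D10G1316 did so by 1.76 and 1.40 in H, 2.07 and 1.90 in M, and 1.92 and 1.28 in L. On the falling side, Gh_D10G1656 differed from its parents by -2.50 and -1.21 in H, -3.27 and -2.24 in M, and -2.60 and -1.71 in L, and Gh_D09G0139 by -1.13 and -1.17, -1.45 and -1.39, and -1.16 and -1.30. Without replicate 3 of L, at 9.85, L minus A of Gh_D09G0139 was -0.96 and not called.

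The low hybrid differed from its paternal parent by less in several rising genes. Line D had the highest inbred level of these genes, and L minus D was 0.86 for Gh_D06G1180 (adjusted p = 0.000202), 0.83 for Gh_A06G0991, 0.90 for Gh_A10G1183 and 0.88 for Gh_A12G1530. All 4 values fell short of the limit, while H minus B was 1.33, 1.30, 1.24 and 1.10 and M minus C was 2.06, 1.58, 1.53 and 1.44 for the same genes. Whether these differences between the crosses exceed the error was not tested.

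Other calls against both parents rested on few libraries. Beta-amylase 5 gene Gh_D11G3066 was called higher in L than in A and D, where it is listed at 0, but its L values were 3.08, 1.92 and 0.17, and the call was lost with no filter on low values, with quantile normalization and without any 1 library of A or of D. The starch synthase 2 copy Gh_A09G0145 was called lower in M, by -1.004 from A and -1.02 from C, and both calls were lost without replicate 2 of M (-0.85 from A and -0.86 from C). The call against A was also lost without replicate 3 of A, and that against C without replicate 2 or 3 of C. The M minus C call of Gh_D11G0279, at -1.02, was lost without replicate 3 of C (-0.96), replicate 2 of M (-0.83) or replicate 3 of M (-0.98).

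**Figure D4:**
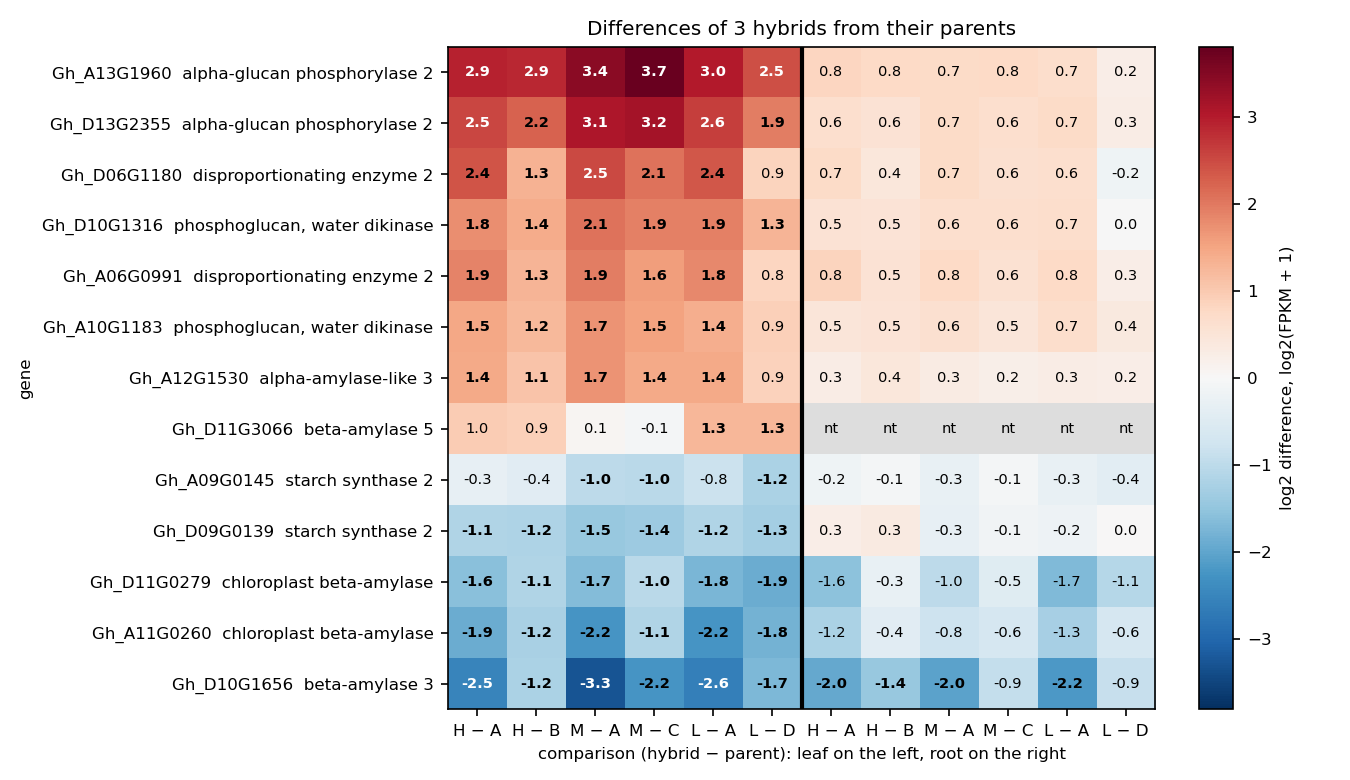
Hybrid minus parent log2 differences of the 13 starch genes that lay beyond both parents in the leaf of at least 1 hybrid, with the 6 hybrid-parent comparisons in leaf at the left and in root at the right, bold where called and grey where a gene was not tested. Red marks a level above the parent and blue one below it, and Gh_D10G1656 alone has bold values in the root columns.

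In root the calls against A were 2 each in H, M and L (4.24%, 3.55% and 3.63% of all genes), and they were 1 in H against B (2.62%), 0 in M against C (2.61%) and 0 in L against D (4.68%), with each called gene lower in the hybrid. A pseudocount of 0.1 gave 8, 5 and 6 calls against A, 4 for H against B, 2 for M against C and 5 for L against D. For M against C and L against D the limma fit also gave 0 at an unadjusted p under 0.05 with the log2 limit, while 19 and 27 genes had an adjusted p under 0.05 with smaller differences. The all-gene shares at the pseudocount of 0.1 and at these other limits are not given here, so those counts cannot be set against them. The genes called against A were Gh_D10G1656, with -1.95 in H, -2.02 in M and -2.19 in L, and Gh_Sca005596G01, a beta-amylase 1, named after its values were seen. The latter had 3.42, 11.6 and 4.01 in the root of A, 0.525 to 0.947 in H and M and 0.97 to 1.58 in L. Its differences from A were -1.93, -1.91 and -1.59. Only Gh_D10G1656 in H lay beyond both parents in root (-1.95 and -1.44, where 0.439% of all genes lay below both), and the call against B was lost without replicate 3 of B (adjusted p = 0.0564) or replicate 2 of H (0.0577). In H 0 starch genes lay above both parents (0.972% of all genes), and in M and L 0 lay above (0.803% and 0.837%) and 0 below (0.396% and 0.658%).

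The paternal lines differed from A in few of these genes. In leaf, Gh_D06G1180 was higher than in A in B (1.05) and in D (1.51), Gh_D10G1656 was lower than in A in B (-1.29) and in C (-1.03), and Gh_A11G0260 was lower in C (-1.09). Against A, the calls were thus 2 in B, 2 in C and 1 in D (1.28%, 1.63% and 2.24% of all genes). The higher level of Gh_D06G1180 in B was 0.92 without replicate 1 of B, the lower one of Gh_A11G0260 in C was -0.85 without replicate 2 of A, and that of Gh_D10G1656 in C was -0.76 without replicate 3 of A and -0.93 without replicate 3 of C.

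In root the calls against A were 1 in B, 1 in C and 2 in D (1.82%, 1.58% and 2.57% of all genes). Gh_Sca005596G01 was lower in all 3 paternal lines, by -1.12, -1.08 and -1.44, and without replicate 2 of A, at 11.6, the values were -0.65, -0.60 and -0.96 and no longer called. The other call, Gh_D10G1656 in D (-1.33), was lost without any 1 library of D or without replicate 2 (-1.02) or 3 (-1.07) of A, whose first root library held 10.3 and the other two 37.0 and 34.6.

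Among the 3 hybrids 0 starch genes were called in either organ in the limma fit, against 0.595%, 1.12% and 0.64% of all genes in leaf (H against L, H against M and M against L) and 0.341%, 0.349% and 0.251% in root. At an unadjusted p under 0.05 with the same log2 limit the numbers were 0, 0 and 1 in leaf and 0 in each root comparison. Below the log2 limit, an adjusted p under 0.05 was reached in leaf by 3 genes in H against M and by 1 in H against L, and by 0 in the other 4 comparisons. These were Gh_A09G0145 (0.70, adjusted p = 0.00566), Gh_D08G0884;Gh_D08G0883 (0.44, 0.029) and Gh_A02G1293 (-0.42, 0.0226) for H minus M and Gh_D12G1653 (0.66, 0.026) for H minus L, named after their values were seen. The all-gene shares at the unadjusted p and below the log2 limit are not given here, so those counts cannot be set against them. With 3 libraries each, the lack of calls does not show that the levels of the crosses are equal.

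Genes with related descriptions outside the 94 were counted from a list of other starch words. Of its 62 genes, 7 are of glycosyl hydrolase family 35. The wording took these in, but that family is not the glycosyl transferase family 35 named below. Of 54 tested in leaf 12 were higher in the hybrids and 0 lower (22.2%, median difference 0.19), and of 49 tested in root 1 was higher and 0 lower (2.04%), against 2.56% and 2.12% of all genes. The genes named here from the list were picked after their values were seen. The list included Gh_D13G0836, of glycosyl transferase family 35, the family of the glucan phosphorylases, at 7.11 ± 2.45 FPKM in 12 inbred and 38.2 ± 3.78 in 9 hybrid leaf libraries (SD, log2 difference 2.33). Also higher in leaf were Gh_D04G1954, a dual specificity phosphatase gene (2.26), and Gh_D07G2245, described as like SEX4 1 (1.40), to which no activity is given here. So were Gh_A08G2321, described as root cap 1, the name of the maltose exporter in Arabidopsis (1.05), and Gh_A03G1723 (2.39). The last is a glucose-1-phosphate adenylyltransferase, another name of ADP-glucose pyrophosphorylase. In root Gh_D04G1954 was also higher, by 1.04. The wider KEGG pathway of starch and sucrose metabolism had 9 higher and 11 lower of 677 genes in leaf (2.95%) and 10 and 12 of 745 in root (2.95%), against 1.63% higher and 0.934% lower of all genes in leaf and 1.28% and 0.847% in root.

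Genes of the circadian clock moved in the same libraries. The 8 LHY genes that the study names, transcription factors of the morning, summed to 63.2 to 114 FPKM in hybrid leaves and 408 to 670 in inbred leaves, and all 8 were lower. In root they summed to 80.6 to 102 and 253 to 310, with 6 of 8 lower, where 0.934% of all genes were lower in leaf and 0.847% in root. The study named these genes for their level in hybrids of the same libraries, so their direction is not independent evidence. The 16 genes described as pseudo-response regulators or gigantea summed to 276 to 345 in hybrid and 89.5 to 209 in inbred leaves (8 of 16 higher). In root they summed to 199 to 282 and 212 to 356 (1 of 15 higher), where 1.63% of all genes were higher in leaf and 1.28% in root. They did not move as 1 group. The pseudo-response regulator 9 genes Gh_A11G0920 and Gh_D11G3525, named after their values were seen, differed by -0.68 and -0.82 in leaf and were not called. The photosynthesis words summed to 22015 to 27221 FPKM in hybrid leaves and 27395 to 34684 in inbred leaves, with 1 of 84 higher and 6 lower (1.63% and 0.934% of all genes). The part of the clock, of the hour of harvest and of the leaf's makeup in the starch gene differences was not tested.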

How the data were processed

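RNA of root and leaf of 7 genotypes, 3 replicates each, gave 42 libraries. Per the labels and the study's methods, the authors aligned reads by HISAT2 to the TM-1 reference and quantified genes with StringTie (tool versions not given in the sources used here). As deposited by the authors, values are FPKM, without counts, so the depth is unknown and no count test was used. 0 columns of other samples were present.

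Genes reaching 1 FPKM in 3 or more of a tissue's libraries entered limma 3.58.1 (R 4.3.3, data.table version 1.17.8), as log2(FPKM + 1) with a mean-variance trend, 1 mean per genotype, 2-sided, Benjamini-Hochberg adjusted over all genes of a comparison. A second fit held both tissues. The study's own comparison of FPKM values was made with Ballgown. Exact permutation tests used the 7 genotype means, with 35 splits. Python 3.11.15, pandas 2.3.3, numpy 2.4.6, scipy 1.17.1 and matplotlib 3.10.9 were used for summaries and plots. The scripts were tested on simulated data.

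The genes, lists, tests and alternatives were chosen with earlier results of these data known. Named genes are both markers, those beyond both parents, up to 8 largest called in each direction of the hybrid contrast, the 2 highest of each class and tissue, and the 3 largest of leaf minus root (each direction) and of the organ difference. Root and leaf of 1 replicate number come from the same plant by the study's methods. Between such libraries the median correlation of residuals was 0.0094 (range -0.0727 to 0.0674), and the plant as a block changed no call. Precision is limited by 3 libraries per genotype and by copies of near-identical sequence. No sequence was used here.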

Additional observations from a re-analysis of the deposited data

Results flagged for a closer look

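For 7 starch genes the hybrid minus inbred difference itself differed between leaf and root by more than 1 on the log2 scale, tested as the interaction in limma over both tissues (Benjamini-Hochberg adjusted over all genes). Higher in leaf than in root by this test were the alpha-glucan phosphorylase 2 copies Gh_A13G1960 (2.43, adjusted p = 6.47e-16) and Gh_D13G2355 (1.97, 1.05e-14), disproportionating enzyme 2 copy Gh_D06G1180 (1.28, 7.45e-14), phosphoglucan, water dikinase copy Gh_D10G1316 (1.18, 3.88e-15) and chloroplast beta-amylase gene Gh_D12G2112 (1.40, 7.7e-06). Lower in leaf were beta-amylase 6 gene Gh_D02G1897 (-1.65, 1.11e-10) and starch synthase 2 copy Gh_D09G0139 (-1.31, 2.41e-07). The levels behind each value stand in the report.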

How the results depend on the processing

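No called direction was reversed. The 11 leaf calls between hybrids and inbreds were made under each alternative run: no filter, a pseudocount of 0.1, a block for the replicate number, quantile normalization, only inbreds of lower base quality, and without 1 library in turn. Replicate numbers did not pair genotypes within a tissue (median residual correlation of equal numbers 7.15e-05 in root and -0.00756 in leaf), and neither the replicate block (7 higher and 4 lower in leaf) nor the plant block changed a call.

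A pseudocount of 0.1 moved counts of calls most, as it widens differences of low values: 8 higher and 4 lower in the test between organs, 12 higher in root, 5, 4 and 3 for B, C and D against A in leaf, and 2 for H against M in leaf. In root it gave 1 higher and 4 lower for hybrids against inbreds, 8 for H against A, 4 for H against B, 5 for M against A, 2 for M against C, 6 for L against A, 5 for L against D, and 2 beyond both parents in each of H, M and L. The all-gene shares at this pseudocount are not given here. Quantile normalization left 2 genes higher in root than in leaf. With the libraries of 1 triad alone, C against A in leaf had 1 call, and in root B against A had 0, C against A 0, D against A 1, H against B 0, and H beyond both parents 0. Only inbreds of lower base quality gave 0 lower in root.

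Without 1 library in turn, hybrids against inbreds had 7 to 7 higher and 4 to 4 lower calls in leaf, and 0 to 0 and 1 to 2 in root. The test between organs had 5 to 5 and 2 to 3, and leaf minus root 32 to 33 and 4 to 5. Leaf calls were 14 to 15 for H against A, 11 to 12 for H against B, 15 to 17 for M against A, 11 to 14 for M against C, 14 to 15 for L against A and 8 to 11 for L against D, and root calls 2 to 4, 0 to 2, 2 to 3, 0 to 1, 2 to 4 and 0 to 0. Beyond both parents were 11 to 12 in H, 11 to 14 in M and 7 to 8 in L in leaf, and 0 to 1, 0 to 1 and 0 to 0 in root. B, C and D against A had 1 to 3, 1 to 2 and 1 to 2 in leaf and 0 to 3, 0 to 2 and 0 to 3 in root. Hybrids against each other had 0 to 1 for M against L in leaf, and 0 in the other 5 comparisons. Leaf minus root in the inbreds only had 27 higher and 5 lower calls and in the hybrids only 35 and 5, alternatives chosen after seeing the data. Over all genes the numbers were 6881 and 9697 in the inbreds and 7280 and 10226 in the hybrids. Of the values of single genes under all alternatives, 3937 kept their side of the threshold, 71 fell below it and 10 passed it, and those on which the report rests are given there.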
